A study of Mus musculus with 6 samples.

Results

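The 58 genes described here encode the machinery of mitosis: the kinases, kinetochores, motors, spindle proteins and exit factors that divide a cell. They were chosen as a list by gene symbol, without regard to a fit, although earlier results of these data were known when the list was drawn up. All 58 were found among the 55335 genes of the count table, 57 under the listed symbol and 1 (Sgol1) under its current symbol Sgo1, and all 58 passed the filter that left 17075 genes for testing. The libraries come from whole lungs of mouse embryos at embryonic day 18. The tested embryos carry the Prx1Cre transgene, 1 floxed and 1 deleted Gata4 allele (Prx1Cre; Gata4 F/D, labelled CKO, 3 libraries). The control embryos carry the same Prx1Cre transgene with 1 floxed and 1 intact allele (Prx1Cre; Gata4 F/+, 3 libraries). Prx1Cre is active in the lateral plate mesoderm, which contributes to the diaphragm, and a whole lung also holds cells of other lineages. Per the submitters' design text, CKO embryos have diaphragm defects and small lungs with reduced cell proliferation, and the comparison asks which lung genes differ. In such bulk samples, fewer dividing cells and less mitotic RNA per dividing cell cannot be told apart.

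A cell enters mitosis when cyclin-dependent kinase 1 is switched on by the A and B cyclins. Kinetochores, the protein plates built on centromeres, then attach chromosomes to spindle microtubules, and the spindle checkpoint holds the cell until every kinetochore is attached. The anaphase-promoting complex next marks cyclin B and securin for destruction, sister chromatids separate, and the cell divides by cytokinesis. Most of the genes involved are transcribed late in the cell cycle, under the transcription factors FOXM1 and B-MYB together with the MuvB complex. That complex binds a short promoter element, the cell cycle genes homology region (CHR), often beside a CCAAT box bound by NF-Y. In the late fetal lung proliferation slows as the saccules form and the epithelium matures.

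The promoters are shown first because CHR and CCAAT letters are what many of these genes have in common outside the counts. Windows from 200 bases before to 30 after an annotated start were read from the RefSeq promoter table (GRCm38.p6), which held 52 windows for 48 of the 58 genes. The remaining 10 (Aurkb, Ccna2, Cdc25c, Foxm1, Incenp, Kif20a, Pbk, Smc4, Spc24 and Tpx2) were not examined. The 6 printed are those of the genes with the smallest p in the comparison whose window holds a CHR. Capitals mark CHR letters (TTTGAA or TTCGAA, on either strand, so also TTCAAA) and CCAAT boxes (CCAAT or its complement ATTGG).
Anln (chr9:22389177-22389406, minus strand): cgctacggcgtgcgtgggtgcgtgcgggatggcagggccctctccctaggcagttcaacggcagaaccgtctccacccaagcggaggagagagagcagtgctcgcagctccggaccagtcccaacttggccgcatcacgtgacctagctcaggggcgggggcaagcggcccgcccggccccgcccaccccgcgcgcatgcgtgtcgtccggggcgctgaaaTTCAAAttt
Kif15 (chr9:122950881-122951110, plus strand): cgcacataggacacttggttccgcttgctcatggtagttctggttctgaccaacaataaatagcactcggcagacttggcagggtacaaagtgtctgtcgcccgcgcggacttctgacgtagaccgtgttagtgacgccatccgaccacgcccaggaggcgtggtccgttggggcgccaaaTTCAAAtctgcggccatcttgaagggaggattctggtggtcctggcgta
Kif11 (chr19:37376182-37376411, plus strand): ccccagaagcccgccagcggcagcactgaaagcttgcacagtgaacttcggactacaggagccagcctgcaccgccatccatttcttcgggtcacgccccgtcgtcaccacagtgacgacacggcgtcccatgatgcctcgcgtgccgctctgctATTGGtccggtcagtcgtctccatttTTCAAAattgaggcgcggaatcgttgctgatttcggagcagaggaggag
Ncapg (chr5:45669725-45669954, plus strand): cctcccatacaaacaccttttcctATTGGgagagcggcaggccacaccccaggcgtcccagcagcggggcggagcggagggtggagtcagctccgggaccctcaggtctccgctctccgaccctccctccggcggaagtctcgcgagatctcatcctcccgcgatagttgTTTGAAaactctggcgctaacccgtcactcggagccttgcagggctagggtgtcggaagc
Kif23 (chr9:61946770-61946999, minus strand): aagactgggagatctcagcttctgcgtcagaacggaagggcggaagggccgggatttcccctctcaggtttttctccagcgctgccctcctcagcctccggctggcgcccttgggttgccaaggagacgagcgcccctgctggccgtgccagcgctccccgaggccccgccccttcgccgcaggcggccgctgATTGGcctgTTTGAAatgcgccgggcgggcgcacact
Mki67 (chr7:135716350-135716579, minus strand): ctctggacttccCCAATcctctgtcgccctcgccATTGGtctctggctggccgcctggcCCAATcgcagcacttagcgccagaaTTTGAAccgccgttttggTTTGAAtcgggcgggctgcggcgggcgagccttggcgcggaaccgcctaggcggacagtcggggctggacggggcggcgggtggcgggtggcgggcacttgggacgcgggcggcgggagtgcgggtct

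Kif11 and Kif15, the motors that push spindle poles apart, both had TTCAAA with its first base 19 bases before the start. Kif23, a motor of the central spindle, had TTTGAA beginning at base 3 after the start, with a CCAAT box from 7 bases before it. Mki67, whose product coats mitotic chromosomes, had 2 CHR matches and 3 CCAAT boxes, all more than 90 bases upstream of the start. Anln carried its only CHR match downstream of the start and no CCAAT box. Over all 52 windows, 32 held a CHR in either form (61.5%), against 14.8% of the 32851 windows in the table. CCAAT was found in 37 of them (71.2%, against 31.7% of all windows), and CHR and CCAAT together in 28 (53.8%, against 4.85%). The E2F-type letters TTGGCGC or TTCCCGC were found in 9 windows (17.3%, against 5.55%), and the forkhead letters GTAAACA or ATAAACA in 2 (3.85%, against 6.10%). These are letter matches on both strands and not measured binding, and TTGGCGC can share letters with a CCAAT box on the other strand. The 30 genes with a CHR in a window had a median log2 fold change of -1.15 between CKO and control libraries, and the 18 with a window but no CHR had -1.002. Their ranges overlapped, from -1.52 to -0.66 and from -1.37 to -0.61. The 10 genes without a window had a median of -1.08. The difference between these groups of genes was not tested.

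Total counts ranged from 15156415 to 29749277 in the libraries labelled CKO and from 20851989 to 30848948 in the controls. The lung markers Sftpc, Sftpb and Ager, surfactant and type 1 cell genes, stood between 960.5 and 16540 CPM in every library, CPM being counts scaled to the TMM-adjusted library size. Counts of the 58 genes in a library ran from 26 reads (Cenpk, CKO 2) to 5413 (Top2a, control 1). Gata4 itself had 117, 76 and 97 reads in CKO 1, 2 and 3, against 84, 63 and 90 in controls 1, 2 and 3, a log2 fold change of 0.49 ± 0.28 (SE, edgeR adjusted p = 0.671). The libraries labelled CKO thus held no less Gata4 RNA than controls. Counts over the whole gene, in RNA of all lung cells, may not register a deletion of part of the gene. Whether that is the case here was not tested. The libraries are therefore called by their labels, on which each direction given here rests. The authors' column names carry a further number, 4229 for CKO 1 and controls 1 and 2, 4723 for CKO 2 and 3, and 4503 for control 3. The labels do not say what it stands for. Control 3 and CKO 1 each stood apart from the rest of their groups: chi-square per degree of freedom was 116 and 124 for CKO 1 against CKO 2 and 3, and 31.3 and 37.7 for control 3 against controls 1 and 2, while it was 11.9 for CKO 2 against 3 and 8.75 for control 1 against 2.

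All 58 mitotic genes had lower mean levels in the libraries labelled CKO than in controls, with a median log2 fold change of -1.13, yet none passed the test over all genes. The median over all 17075 tested genes was 0.01, and 48.5% of them had negative values. Of the 58, 37 had a log2 fold change of -1 or lower, which 1.46% of all tested genes reached. Summed over the 58 genes, the level was 1373, 838 and 1220 CPM in CKO 1, 2 and 3, against 2764, 2902 and 1352 CPM in controls 1, 2 and 3. The genes thus took 0.135%, 0.0835% and 0.124% of all reads in the libraries labelled CKO, against 0.278%, 0.290% and 0.134% in controls. Controls 1 and 2 stood far above every other library, and control 3 lay between CKO 1 and CKO 3.

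With edgeR's quasi-likelihood test and Benjamini-Hochberg adjustment, 0 of the 58 had an adjusted p under 0.05 (range 0.529 to 0.837), where the share over all tested genes was 0%. At an unadjusted p under 0.05 there were 42 of 58, all lower, against 4.91% of all genes lower at that level. The 58 genes moved together by library: controls 1 and 2 lay above the control mean for all 58, and control 3 below it. Counts of members are thus not counts of separate observations. The pooled SD between replicates of the mean log2 ratio over the members was 0.578. DESeq2 called 10 of the 58, all lower (Anln, Ect2, Foxm1, Hmmr, Kif11, Kif15, Kif23, Mki67, Ncapg and Top2a), where it called 0.408% of genes lower. No member was called by voom without weights (0 of 58). Voom with sample quality weights called 57, against 12.9% of all genes lower; it gave CKO 1 a weight of 0.0884 and control 3 one of 0.458. For 13 of the 58 every library labelled CKO lay below every control, against 9.08% of all tested genes.

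**Figure D1:**
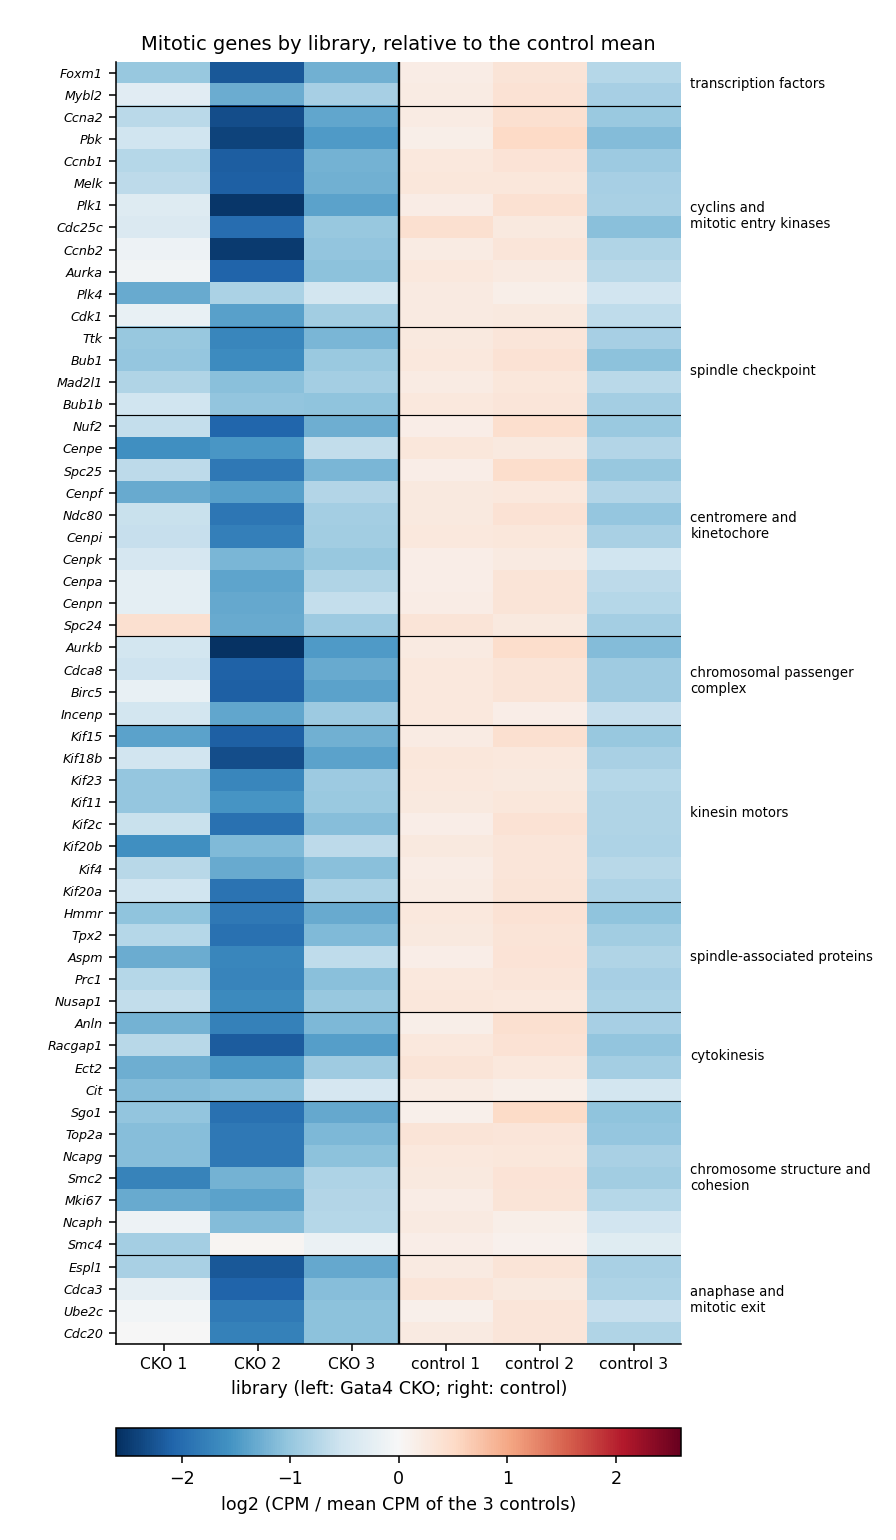
Log2 ratio of each library's CPM to the mean of the 3 controls for the 58 mitotic genes, with CKO 1 to 3 left of the black line and controls 1 to 3 right of it, grouped by role. Blue is below and red above the control mean; CKO 2 is darkest for most genes, controls 1 and 2 are above the mean for all 58, and control 3 is below it for all 58.

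Among the transcription factors of the program, Foxm1, the forkhead activator of late cell cycle genes, had 15.98, 6.88 and 13.2 CPM in CKO 1, 2 and 3, against 36.1, 39.7 and 18.8 CPM in controls 1, 2 and 3. Every library labelled CKO lay below every control, and the log2 fold change came to -1.38 ± 0.37 (SE, edgeR adjusted p = 0.529). Mybl2, which encodes B-MYB, had 7.52, 3.77 and 5.09 CPM in CKO libraries and 10.8, 12 and 5.08 CPM in controls. Control 3 lay among the CKO values there, and the log2 fold change was -0.76 ± 0.38 (SE, adjusted p = 0.620).

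The cyclins and entry kinases had a median log2 fold change of -1.05, all 10 negative and 0 passing. Ccna2 (cyclin A2) had 51.9, 17.0 and 33.1 CPM in CKO 1, 2 and 3, against 96.9, 111.7 and 42.9 CPM in controls 1, 2 and 3, a log2 fold change of -1.30 ± 0.46 (SE, edgeR adjusted p = 0.529). CKO 2 was the lowest library and control 2 the highest, and CKO 1 was above control 3. Ccnb1 and Ccnb2, the B cyclins, had log2 fold changes of -1.25 and -0.92. Cdk1, their catalytic partner, had 58.4, 24.95 and 35.4 CPM in CKO libraries, against 78.5, 78.9 and 42.1 CPM in controls (39.6 ± 17.1 and 66.5 ± 21.1 CPM, SD, n = 3 each). Its log2 fold change was -0.75 ± 0.35 (SE, adjusted p = 0.599), the smallest of this group. Plk1, a kinase used from entry to exit, had 18.4, 4.04 and 8.88 CPM in CKO libraries, against 26.4, 30.4 and 12.9 CPM in controls. Aurka, the spindle pole kinase, had a log2 fold change of -0.85, and Cdc25c, the phosphatase that activates Cdk1, one of -0.96. Plk4, which starts centriole duplication, behaved otherwise across the CKO libraries: 13.2, 18.5 and 23.2 CPM in CKO 1, 2 and 3, against 38.3, 36.1 and 23.1 CPM in controls. There CKO 1 was the lowest library, and CKO 3 and control 3 were nearly equal. Melk and Pbk, further mitotic kinases, had log2 fold changes of -1.23 and -1.26.

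The 4 spindle checkpoint genes had log2 fold changes from -1.25 to -0.84, and for 2 of them the groups did not overlap. Ttk, the kinase that starts checkpoint signalling, had 7.96, 4.90 and 6.94 CPM in CKO 1, 2 and 3, against 19.0, 19.8 and 8.68 CPM in controls 1, 2 and 3. Mad2l1, which encodes the checkpoint inhibitor MAD2, had 19.7, 15.95 and 18.4 CPM in CKO libraries, against 39.6, 41.7 and 20.9 CPM in controls. All CKO values lay below all controls for both genes, with control 3 the closest. Bub1 and Bub1b, which load and form the checkpoint complex, had -1.17 and -0.84, and control 3 lay within the CKO range for both.

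The 10 centromere and kinetochore genes had a median log2 fold change of -1.002, and in none did the groups separate. Cenpe, a kinetochore motor, had 12.3, 12.97 and 23.8 CPM in CKO 1, 2 and 3, against 45.3, 44.1 and 21.98 CPM in controls 1, 2 and 3 (log2 fold change -1.18 ± 0.35, SE, edgeR adjusted p = 0.529). Cenpf, a large protein of the outer kinetochore, had -1.12, and Cenpa, the histone that marks centromeres, had -0.73. The inner kinetochore genes Cenpi, Cenpk and Cenpn had -0.998, -0.83 and -0.66. Cenpk had the fewest reads of the 58, between 26 and 96 per library.

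The 4 subunits of the NDC80 complex, which grips microtubules, all had negative values, that of Spc24 being nearest to 0. Nuf2, Spc25 and Ndc80 had log2 fold changes of -1.19, -1.16 and -1.01, whereas Spc24 had -0.41 ± 0.49 (SE, edgeR adjusted p = 0.837). Spc24 had 17.3, 5.30 and 6.84 CPM in CKO 1, 2 and 3, against 16.5, 15.6 and 7.11 CPM in controls 1, 2 and 3. CKO 1 was thus the highest library for Spc24, which was true of no other gene of the 58. Per kilobase of exon, the mean levels were 3.82, 2.65, 1.67 and 1.11 CPM per kb for Spc24, Spc25, Nuf2 and Ndc80 in CKO libraries. In controls they were 5.08, 5.95, 3.84 and 2.26 CPM per kb. The value of Spc24 rested on CKO 1: without that library its log2 fold change was -1.09, against -1.26 for Ndc80, -1.45 for Spc25 and -1.58 for Nuf2. With control 3 left out as well, Spc24 had -1.38 (edgeR adjusted p = 0.000445), where 12.7% of all genes were called lower. That fit drops the highest CKO library and the lowest control for Spc24. In it the number in the column names and the group cannot be told apart. Quality weights, which gave both libraries little weight, put Spc24 at -1.16 (limma adjusted p = 0.00757), where 12.9% of all genes were called lower. The difference in fold change between Spc24 and its partners was not tested.

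The chromosomal passenger complex, which corrects faulty attachments and later directs cytokinesis, had a median log2 fold change of -1.09 over its 4 genes. Aurkb, its kinase, had 15.8, 3.71 and 7.89 CPM in CKO 1, 2 and 3, against 25.7, 30.04 and 10.1 CPM in controls 1, 2 and 3. This is a wide spread within the CKO group, and CKO 1 exceeded control 3 (log2 fold change -1.25 ± 0.55, SE, edgeR adjusted p = 0.575). Birc5 (survivin) had 26.4, 6.95 and 11.4 CPM in CKO libraries, against 36.3, 38.1 and 15.9 CPM in controls. Cdca8 (borealin) and Incenp, the scaffold, had log2 fold changes of -1.17 and -0.88.

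The kinesin motors held the largest difference of the 58 and had a median log2 fold change of -1.12, all 8 negative. Kif15 (chromosome 9, 122951046 to 123018733, plus strand, GRCm38) had 11.2, 6.75 and 12.4 CPM in CKO 1, 2 and 3, against 33.9, 39.3 and 14.8 CPM in controls 1, 2 and 3. Its log2 fold change came to -1.52 ± 0.38 (SE, edgeR adjusted p = 0.529), and its groups did not overlap. Kif11, the main bipolar spindle motor, had 27.5, 19.0 and 28.0 CPM in CKO libraries, against 65.4, 67.5 and 31.7 CPM in controls. Kif23 and Kif4, which organise the central spindle, also had groups that did not overlap, with log2 fold changes of -1.17 and -1.02. Kif2c, a microtubule depolymerase, had -1.10, Kif18b -1.20, Kif20b -1.09 and Kif20a -0.97. For all 4 of these control 3 lay within the range of the CKO libraries.

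The spindle-associated proteins and the cytokinesis genes were alike in size, with median log2 fold changes of -1.15 and -1.26. Hmmr, a microtubule-binding protein of spindle poles, had 14.1, 8.01 and 11.7 CPM in CKO 1, 2 and 3, against 35.3, 37.9 and 14.2 CPM in controls 1, 2 and 3, and CKO 1 and control 3 were nearly equal. Tpx2, which activates Aurora A, had a log2 fold change of -1.19. Aspm, a spindle pole protein, had -1.15, the microtubule bundler Prc1 -1.13 and Nusap1 -1.03. Anln (anillin, the scaffold of the contractile ring) had 24.0, 16.7 and 25.3 CPM in CKO libraries, against 63.0, 75.7 and 31.3 CPM in controls. This was the smallest p of the 58 (unadjusted p = 0.00322, edgeR adjusted p = 0.529), at a log2 fold change of -1.36 ± 0.33 (SE). Ect2, which activates RhoA at the cleavage site, had 17.4, 14.8 and 22.1 CPM in CKO libraries, against 52.4, 50.2 and 22.6 CPM in controls. Racgap1, the partner of Kif23 in centralspindlin, had -1.32, and Cit, the citron kinase of the midbody, had -0.85.

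**Figure D2:**
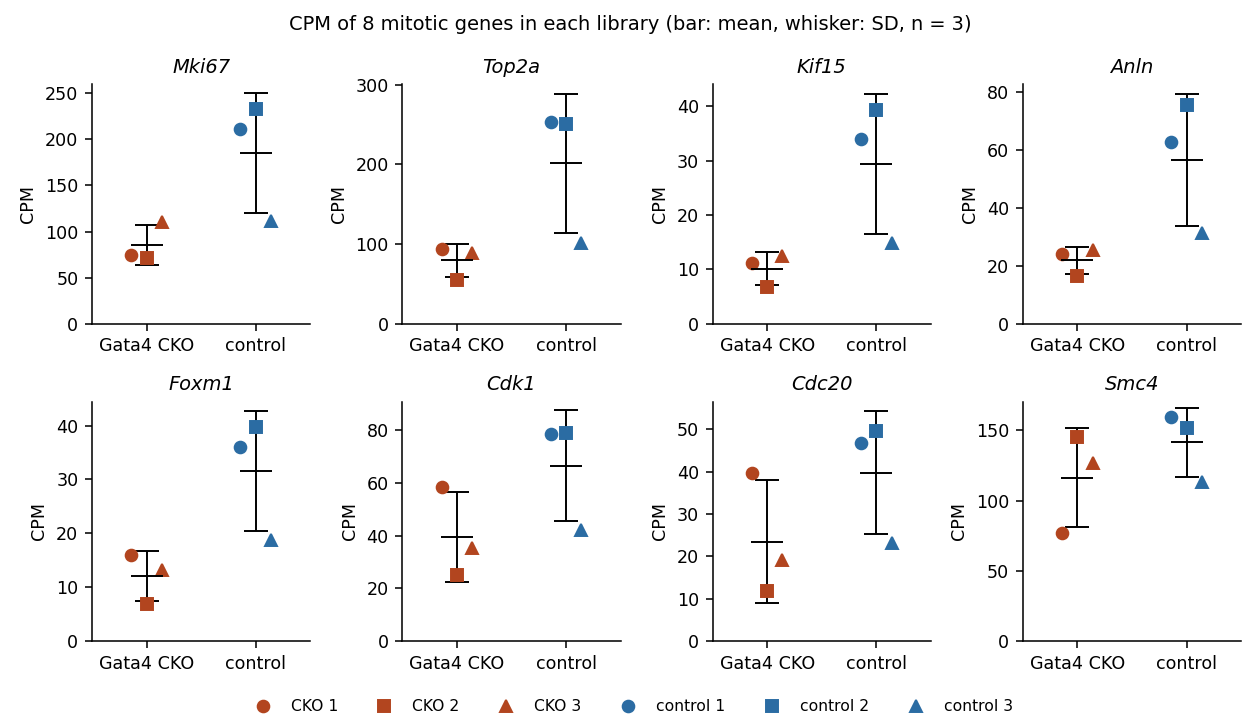
CPM of 8 mitotic genes in each library, with CKO libraries left and controls right in each panel; horizontal bars are means and whiskers SDs (n = 3). Controls 1 and 2 stand together at the top of every panel and control 3 lies at or near the CKO values; in Cdc20 CKO 1 is close to controls 1 and 2, and in Smc4 it is the lowest.

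Of the chromosome structure and cohesion genes, Mki67 (chromosome 7, 135689784 to 135716361, minus strand) had 74.7, 71.0 and 110 CPM in CKO 1, 2 and 3, against 211.4, 233.1 and 111.2 CPM in controls 1, 2 and 3. CKO 3 and control 3 were thus nearly equal, although the means were 85.2 ± 21.5 CPM in CKO libraries and 185.2 ± 65.0 CPM in controls (SD, n = 3 each). Top2a (chromosome 11, 98992943 to 99024189, minus strand), the topoisomerase that untangles sister chromatids, had 93.8, 55.2 and 89.3 CPM in CKO libraries, against 252.5, 250.8 and 100.7 CPM in controls. Its log2 fold change came to -1.34 ± 0.37 (SE, edgeR adjusted p = 0.529). Sgo1, which guards centromeric cohesion, had -1.37.

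The condensin subunits, which compact chromosomes, were unequal. Ncapg and Smc2 had log2 fold changes of -1.29 and -1.20, Ncaph -0.61 and Smc4 -0.28 ± 0.25 (SE, edgeR adjusted p = 0.784). Smc4 (chromosome 3, 69004738 to 69034623, plus strand) had 77.0, 145.5 and 126.6 CPM in CKO 1, 2 and 3, against 159.2, 151.8 and 113.3 CPM in controls 1, 2 and 3. In CKO 2, where 51 of the 58 genes had their lowest value, Smc4 stood at the control level. Per kilobase of exon it was the most abundant of the 58 in both groups, at 22.3 CPM per kb in CKO libraries and 27.1 CPM per kb in controls. Its obligate partner Smc2 had 4.69 CPM per kb in CKO libraries and 10.8 CPM per kb in controls. Without CKO 1 the log2 fold change of Smc4 was -0.05, and those of Ncaph, Smc2 and Ncapg were -0.91, -0.98 and -1.38. Without CKO 2 they were -0.47 for Smc4 and -0.39, -1.18 and -1.07 for the others. With the number in the column names as a term, which sets CKO 1 alone against controls 1 and 2, Smc4 had -1.015. Ncaph, Smc2 and Ncapg then had -0.33, -2.03 and -1.39. The place of Smc4 among the subunits thus depended on which CKO library was used. The difference between the subunits was not tested.

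The 4 genes of anaphase and mitotic exit had a median log2 fold change of -0.88, which was -1.42 without CKO 1, and the libraries labelled CKO were far apart: the median log2 ratio to the control mean was -0.16 in CKO 1, -1.96 in CKO 2 and -1.09 in CKO 3. Cdc20, the activator of the anaphase-promoting complex, had 39.6, 11.7 and 19.1 CPM in CKO 1, 2 and 3, against 46.7, 49.6 and 23.1 CPM in controls 1, 2 and 3 (log2 fold change -0.76 ± 0.45, SE, edgeR adjusted p = 0.678). Ube2c, the conjugating enzyme of that complex, had 30.1, 8.94 and 15.3 CPM in CKO libraries, against 34.8, 39.6 and 21.1 CPM in controls. Cdca3, which takes part in the destruction of a mitotic inhibitor, had -0.95. Espl1 (separase, the protease that cuts cohesin) had the largest difference of the 4: 11.4, 4.44 and 8.12 CPM in CKO libraries, against 24.3, 26.0 and 11.4 CPM in controls, a log2 fold change of -1.35.

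**Figure D3:**
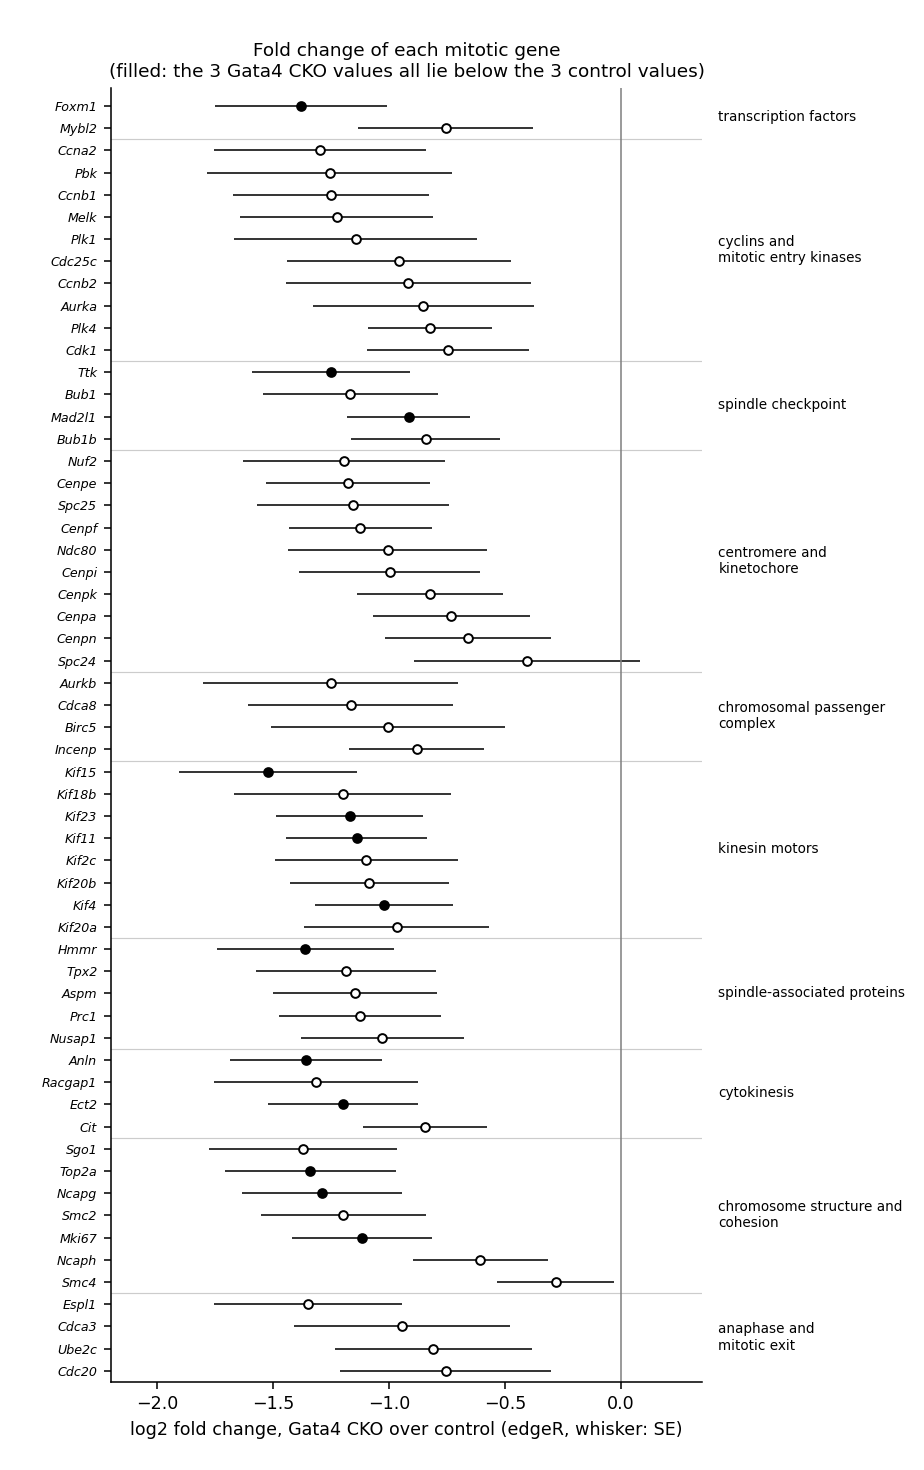
Log2 fold change (libraries labelled CKO over controls, edgeR, whiskers SE) of the 58 mitotic genes, grouped by role. All 58 points lie left of 0, between -1.52 (Kif15) and -0.28 (Smc4); the 13 filled points are genes whose CKO values all lie below all control values.

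The place of controls 1 and 2 was nearly the same from gene to gene, whereas that of CKO 1 varied. Its log2 ratio to the control mean ran from -1.73 (Smc2) to 0.41 (Spc24), and it was the highest CKO library for 42 of the 58. Controls 1 and 2 lay above every library labelled CKO for 57 of the 58 genes, Spc24 being the exception. Control 3 was the lowest control for all 58, lay within the range of the CKO libraries for 45 and above all of them for 13, and it was below all of them for none. Over all tested genes, control 3 lay within that range for 62.5%. The median ratio to the control mean, over the 58 genes, was 62.0%, 29.4% and 48.3% in CKO 1, 2 and 3, against 118%, 125% and 55.8% in controls 1, 2 and 3. CKO 2 was the lowest of the 6 libraries for 51 genes. CKO 1 was lowest for 6 (Cenpe, Cit, Kif20b, Plk4, Smc2 and Smc4) and CKO 3 for 1 (Bub1b).

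Results that rest on the libraries that stand apart were different when these were left out. Without control 3, 57 of the 58 had groups that did not overlap (17.7% of all genes were lower in that way), the median log2 fold change was -1.41, and 0 passed in edgeR. Without CKO 1, 45 did not overlap (21.6% of all genes), the median was -1.34, and 0 passed, where 0.228% of all genes were called lower. With both left out, all 58 did not overlap (33.6% of all genes) and the median was -1.60. In that fit 52 passed, where 12.7% of all genes were called lower. Control 3 was the lowest control for all 58, and CKO 1 the highest CKO library for 42. For 57, every library labelled CKO already lay below controls 1 and 2, which the count without control 3 repeats. The wider separation was thus largely fixed by which libraries were dropped, and it is no separate support. CKO 1 is the only library labelled CKO that shares its number with a control, so in the fits without it number and group cannot be told apart. Within the shared number 4229, CKO 1 lay below controls 1 and 2 for 57 of the 58 genes, as it did for 44.8% of all tested genes. With the number as a term the median was -0.999 and 30 passed (23.5% of all genes were called lower), but that fit sets 1 CKO library against 2 controls.

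CKO 1 differed from the other libraries labelled CKO in which genes were low. The plot against exon length shows this. In CKO 1 the log2 ratio to the control mean was lower the longer the gene's exons across the 58 genes (Pearson r = -0.71, Spearman rho = -0.74, n = 58 genes of 1 library, given as a description). In CKO 2 and CKO 3 it ran the other way (Pearson r = 0.36 and 0.37). The CKO 1 ratio also rose with GC percent across the 58 genes (Pearson r = 0.545, Spearman rho = 0.581). Length and GC content were not tested apart. The 29 genes with the shorter exons (1531 to 4934 bases) had medians of -0.48, -1.94 and -1.08 in CKO 1, 2 and 3. The 29 with the longer exons (5177 to 16417 bases) had -1.01, -1.70 and -0.94. In control 3 the corresponding medians were -0.87 and -0.80. A spline in exon length and GC content had an R squared of 0.30 with CKO 1's deviations over all tested genes, 0.117 and 0.0593 in CKO 2 and 3, and 0.0218 to 0.0258 in controls. With this trend removed, all 58 genes were still negative, the median was -0.98 and 0 passed, while only 4 had groups that did not overlap (9.25% of all genes). Where the trend comes from was not tested.

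**Figure D4:**
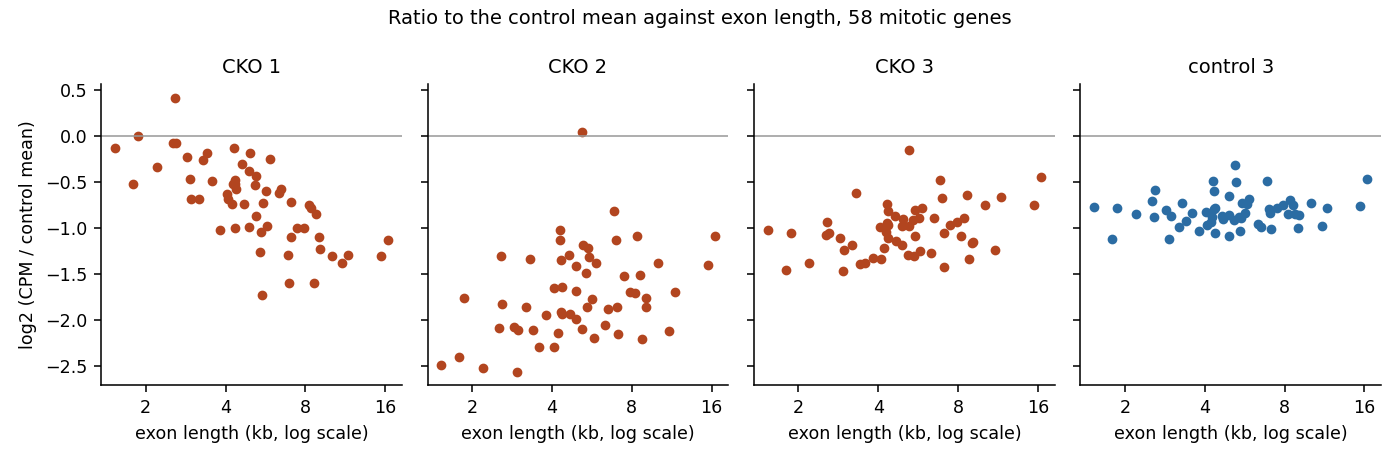
Log2 ratio to the control mean against exon length (log axis) for the 58 mitotic genes in CKO 1, CKO 2, CKO 3 and control 3; each point is 1 gene. In CKO 1 longer genes tend to be lower (Pearson r = -0.71), which CKO 2 and CKO 3 do not show (0.36 and 0.37).

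Genes of the neighbouring steps were read from lists drawn up with earlier results known. Of 57 tested mitotic genes outside the 58, 51 were negative, 0 passed in either direction in edgeR (29 lower and 0 higher at an unadjusted p under 0.05), and the median log2 fold change was -0.91. Depdc1a and Depdc1b, both linked to mitotic progression, had -1.80 and -1.27, and the motor Kif14 had -1.40. Of 31 DNA replication genes, 30 were negative and 0 passed (19 lower at an unadjusted p under 0.05), with a median of -0.79. Clspn, Mcm4, Mcm6 and Dtl had -1.51, -1.06, -0.79 and -1.31. The summed level of the 58 mitotic genes over that of the replication genes was 2.13, 2.08 and 2.33 in CKO 1, 2 and 3, against 2.74, 2.68 and 2.29 in controls 1, 2 and 3. Control 3 again lay within the CKO range.

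The list for the anaphase-promoting complex, its core subunits and the coactivator gene Fzr1, had values nearer to 0. Of 15 tested, 8 were negative, 0 passed, and the median was -0.03. Their summed level was 1376, 1224 and 1270 CPM in CKO libraries, against 1327, 1384 and 1254 CPM in controls. Cdc20 and Ube2c, their partners that are made late in the cycle, thus varied widely among libraries in which this sum stayed close. The sum does not describe each gene of the list, whose log2 fold changes ran from -0.36 to 0.37. The median log2 ratio of the list to the control mean was 0.29 in CKO 1 and -0.17 in CKO 2. Of the 9 MuvB and DREAM genes, whose products form the complexes that act at CHR and E2F elements, 6 were negative, 0 passed, and the median was -0.19. Tfdp1 and Rbl1, the dimer partner of E2F factors and the pocket protein p107, had -0.71 and -0.85 with groups that did not overlap, Lin9 had -0.37 and E2f4 -0.18.

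**Figure D5:**
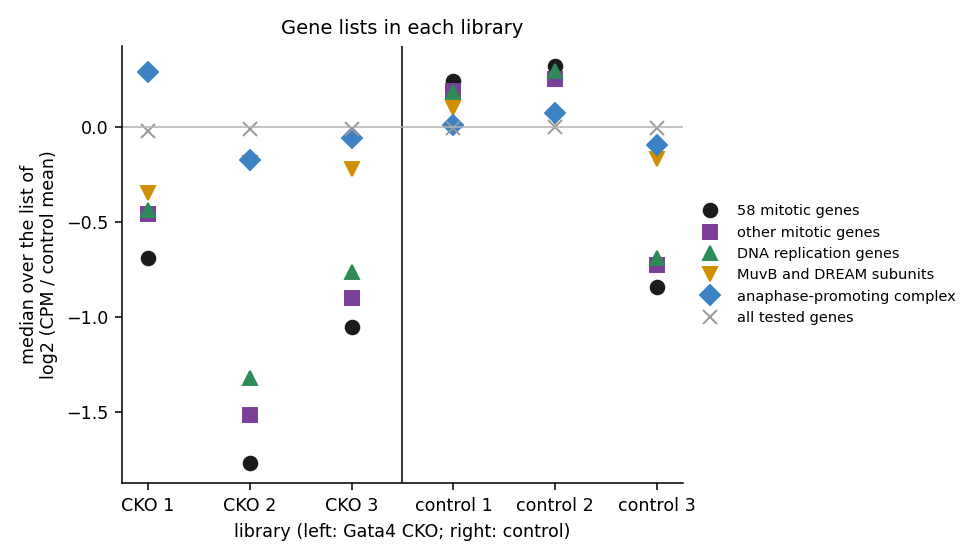
Median over each gene list of the log2 ratio to the control mean in each library, CKO 1 to 3 left of the line and controls 1 to 3 right of it. The mitotic genes, the other mitotic genes and the replication genes lie between -1.77 and -0.44 in the CKO libraries and between -0.84 and -0.69 in control 3, and above 0 in controls 1 and 2; the anaphase-promoting complex lies between -0.17 and 0.29 in all libraries.

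Some markers of other cells were higher in the libraries in which the mitotic genes were lower. Macrophage and monocyte markers were positive for 7 of 8 genes (median log2 fold change 0.75, 0 passing), and their summed level was 1269, 1305 and 1284 CPM in CKO 1, 2 and 3, against 530.5, 465.9 and 1341 CPM in controls 1, 2 and 3. Lyz2, which macrophages and late type 2 cells share, made up most of it, so that the sum follows 1 gene: the median log2 ratio of the list to the control mean was 0.75, 0.80 and 0.71 in CKO libraries, against 0.02, -0.26 and 0.24 in controls. Lyz2 itself had 1102, 1097 and 1087 CPM in CKO libraries, against 381.3, 339.2 and 1177 CPM in controls. Sftpc, surfactant protein C, had 16540, 11130 and 9928 CPM in CKO libraries, against 6526, 6037 and 9729 CPM in controls. Control 3 thus stood with the CKO libraries in Lyz2 and Sftpc too, but not in every marker. For 5 of the 8 macrophage and monocyte genes, every CKO library lay above every control, control 3 included. That was so for 1313 of the 17075 tested genes. Csf1r was among the 5. Csf1r had 64.2, 51.7 and 55.5 CPM in CKO libraries, against 48.5, 39.7 and 49.5 CPM in controls. Ager did not set controls 1 and 2 apart, with 1682, 960.5 and 1007 CPM in CKO libraries, against 1100, 1102 and 1364 CPM in controls. The part of cell composition or lung maturity in the mitotic values was not tested. Erythroid markers, a possible source of dividing cells, summed to between 3398 and 4872 CPM in CKO libraries and between 3024 and 4490 CPM in controls. Their median log2 fold change was 0.10 over the 9 tested of 11 found, with the regulator Klf1 too low to test at 6 to 15 reads a library. Heart muscle genes summed to between 422.7 and 689.2 CPM in CKO libraries and between 393.2 and 424.5 CPM in controls (7 tested, all positive, 0 passing). Mesothelial markers summed to between 610.3 and 893.4 CPM in CKO libraries and between 719.9 and 772.3 CPM in controls (5 tested, median 0.06). Liver genes were near 0, at most 22.1 CPM in sum in control 1 and at most 4.40 CPM elsewhere.

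Whether the counting used the strand that the kit keeps is not stated, so reads of a member and of a gene overlapping it on the other strand cannot be told apart. Such genes with more reads than the member overlap Cenpk (Ppwd1), Kif20a (Cdc23), Kif4 (Pdzd11), Ncapg (Lcorl) and Cdc20 (Elovl1). The copies Ccnb1-ps and Kif4-ps had 17 and 0 reads over all libraries. The labels describe the libraries as biological replicates.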

How the data were processed

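RNA was taken from whole embryonic lungs and made into stranded mRNA libraries, per the labels' protocols. The deposited values are whole-number read counts per gene, not scaled. Tools listed in the submitters' processing notes are featureCounts 2.0.1, STAR 2.7.10a and DESeq2 1.36.0, and the listed builds are mm10 and GRCm38; which step used which is not stated. Annotation release, strand setting and read filters: not given in the sources used here.

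Symbols were filled by gene ID for 23239 of 23377 genes that lacked one. Of genes with the same symbol, all but the one with the most reads (180) were called by gene ID. Low counts were removed by filterByExpr (count minimum 10, total 15), and the rest were scaled by TMM and tested over all genes in edgeR 4.0.16 under R 4.3.3 (quasi-likelihood, robust), CKO against control, with no covariate. The threshold was a Benjamini-Hochberg adjusted p of 0.05, two-sided. The SE is the size of the log2 fold change over the square root of F. CPM uses TMM-scaled library sizes. Exon length is the union of exons in GENCODE mouse release 21 on GRCm38. The same edgeR steps were also run on simulated counts drawn independently for each gene. The simulated libraries held none that stands apart and no length or GC trend, so that run does not bear on these features.

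The alternatives were DESeq2 1.42.0, limma-voom and voom with quality weights (limma 3.58.1), other scalings, no count filter, the replicate number as a block, the label number as a term, libraries left out, and a length and GC spline (5 degrees of freedom, prior count 2) as an offset. The members, lists and alternatives were chosen with earlier results of these data known. Any of the 58 genes could be named; of other lists, the 4 genes with the smallest p, or for other cell types the 3 with the highest mean, apart from Gata4, Klf1 and genes that overlap a member; 1 gene that this rule names is not reported here. With 3 libraries a group, no exact permutation p under 0.1 can be reached for a single gene. Of 162 genes on the other lists 160 were found.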

Additional observations from a re-analysis of the deposited data

How the results depend on the processing

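The direction of the 58 genes did not depend on the 16 other settings, except that Spc24 had a log2 fold change of 0.11 with the label number as a term. The median log2 fold change lay between -1.60 and -0.88 in all of them. The number of members past the threshold was 0 in edgeR, but 10 with DESeq2, 57 with quality weights, 30 with the label number as a term and 52 with control 3 and CKO 1 both left out. Over all genes the counts were 110, 4375, 7308 and 4389 in the same settings, and 0 in edgeR. Leaving out 1 library gave 0 to 115 genes and 0 members, and 11 to 57 members whose groups did not overlap. Of all tested genes, 21.6% were lower in that way without CKO 1 and 17.7% without control 3. The share was not taken for the other libraries left out, so the range cannot be set against it. The count of such members was 58 with control 3 and CKO 1 left out (33.6% of all genes). It was 4 with the length and GC trend removed (9.25% of all genes). The 115 genes were those without CKO 1. The cause of these shifts was not tested. The label number term sets CKO 1 alone against controls 1 and 2. The replicate block gave 0 members past the threshold and a median of -1.09. Deviations of libraries with the same replicate number correlated at 0.11, -0.30 and 0.12. CKO 1 went best with control 2 (0.23), and CKO 2 and CKO 3 both with control 3 (0.31 and 0.12). Deviations from a mean of 3 libraries depend on each other, so these values cannot decide whether the numbers pair the samples.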
